A study of Mus musculus with 4 samples.

Results

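The insulin-like growth factor (IGF) ligands, their receptor and their binding proteins were followed across the prostates of 4 individual mice. The members were the 10 genes Igf1, Igf2, Igf1r and Igfbp1 to Igfbp7, taken as every probe that the array files name for them. This gave 17 of the 41174 probes on the arrays. Of these, 15 probes for 9 genes were bright enough to test, among 24850 probes in all. The Igfbp1 probe and 1 of the 3 Igf1 probes were too dim.

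Each 2-colour Agilent array held the RNA of 1 mouse, labelled red with Cy5, and, labelled green with Cy3, pooled RNA of 3 wild-type animals. The dyes were not swapped. All 4 mice were 60 days old, came from mixed C57BL/6, 129/SVJae and FVB stock, and carried conditional (floxed) Trp53 on both alleles with the PB-Cre4 transgene, so these features do not separate the groups. In the 2 mice called mutant here (Rb1R654W/F:Trp53F/F:PB-cre4), R654W Rb1 was encoded by 1 allele, beside a floxed Rb1 allele. In the 2 mice called null here (Rb1F/F:Trp53F/F:PB-Cre4), both Rb1 alleles were floxed. The probasin promoter drives Cre in prostate epithelium, so stromal cells of all 4 mice kept their Rb1 and Trp53 alleles, and RNA of the whole tissue mixes both compartments. The R654W protein is the mouse form of a weak human retinoblastoma allele and binds E2F factors poorly.

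IGF-I and IGF-II are small secreted hormones that act through the receptor tyrosine kinase encoded by Igf1r. In the prostate the ligands are made mainly by stromal cells, while epithelial cells carry the receptor. The IGF binding proteins hold the ligands in the extracellular fluid, lengthen their life or keep them from the receptor, and are released from them by proteases.

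The probes that carried the results are shown here so that the measured stretch of each transcript can be seen. Each probe is 60 bases long, and positions are those of the files in mouse build mm7. The first lies in the coding sequence of mature IGF-I, on chromosome 10 from 87471884 to 87471943. The second ends with the stop codon of Igfbp2, marked in capitals, on chromosome 1 from 73093964 to 73094023. The third lies in the Igfbp3 coding sequence on chromosome 11, and its span from 7160474 to 7161483 covers 1010 bases, so the probe crosses an intron. These 3 are shown in full, 5′ to 3′.
Igf1 A_52_P536434: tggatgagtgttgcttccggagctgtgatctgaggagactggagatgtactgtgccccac
Igfbp2 A_51_P423308: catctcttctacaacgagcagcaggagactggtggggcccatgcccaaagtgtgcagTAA
Igfbp3 A_51_P228472: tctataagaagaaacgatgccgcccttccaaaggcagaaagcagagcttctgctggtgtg
For 3 other probes named often below, the first 30 bases are shown, since their place relative to the coding sequence was not settled. The Igf1 probe that is spotted 10 times lies on chromosome 10 from 87488982 to 87489041. Both Igfbp5 probes lie on chromosome 1, the dim one from 73102653 to 73102712 and the bright one from 73100116 to 73100175.
Igf1 A_51_P147942: cgcaggatcctttgctgcttgagcaacctg
Igfbp5 A_51_P204153: aatagaattttccttggtgtctcccatcta
Igfbp5 A_52_P281702: cacatcacatattactgtagctctctatag

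All values below are log2 ratios of a mouse over the wild-type pool, scaled within each array. A value of 0 is read as the pool's level and 1 as a doubling. Since every mouse was labelled red and every pool green, a dye effect on a probe cannot be told apart from a difference from the pool. Because the pool is a single control sample, a test against it does not hold the variation among wild-type animals. Net red signal, the mean signal less the local background, had a median over probes of 96.98 and 89.1 in the mutant mice, 60.7 in null mouse 2 and 25.52 in null mouse 1. Null mouse 1 also stood apart in its ratios. The mutant mice correlated at 0.491 with each other over the probes tested and at 0.528 and 0.575 with null mouse 2, but null mouse 1 reached 0.156 with null mouse 2 and at most 0.233 with a mutant mouse. The Rb1 probe read -0.65 and -0.24 in the mutant mice and 0.09 and -0.87 in the null mice. Whether it lies in the deleted part was not settled. Of the 9 prostate secretory genes past the filter, the probasin gene Pbsn read 1.17 and 0.91 in the mutant mice and 0.34 and -0.21 in the null mice, so a defining marker of the tissue was measured in every mouse. The list as a whole had a median of -1.09 in null mouse 1, where Msmb read -3.13 and Hoxb13 -1.32. The seminal vesicle list had 6 entries past the filter, where Svs4 and Svp2 are 1 gene read by 1 probe and counted 2 times. All 6 were below the pool in every mouse, with medians of -4.14 and -0.79 in the mutant mice and -5.30 and -3.77 in the null mice. Their part in the members' values was not tested.

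No member passed the test in any comparison. The comparisons were mutant against null, each genotype against the pool and all 4 mice against the pool, with limma and a Benjamini-Hochberg adjusted p under 0.05 over all 24850 probes. The background was as low, with 0 probes (0%) called between the genotypes, 0 (0%) in each genotype against the pool and 3 (0.0121%) in all 4 mice against the pool. At an unadjusted p under 0.05, limma gave 0 of the 15 member probes between the genotypes, against 542 of all probes (2.18%). It gave 2 in the mutant mice against the pool, where the background was 10.6%, 0 in the null mice, where it was 10.2%, and 3 in all 4 mice, where it was 17.6%. The plot of the members by mouse shows the spread that these tests met.

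**Figure D1:**
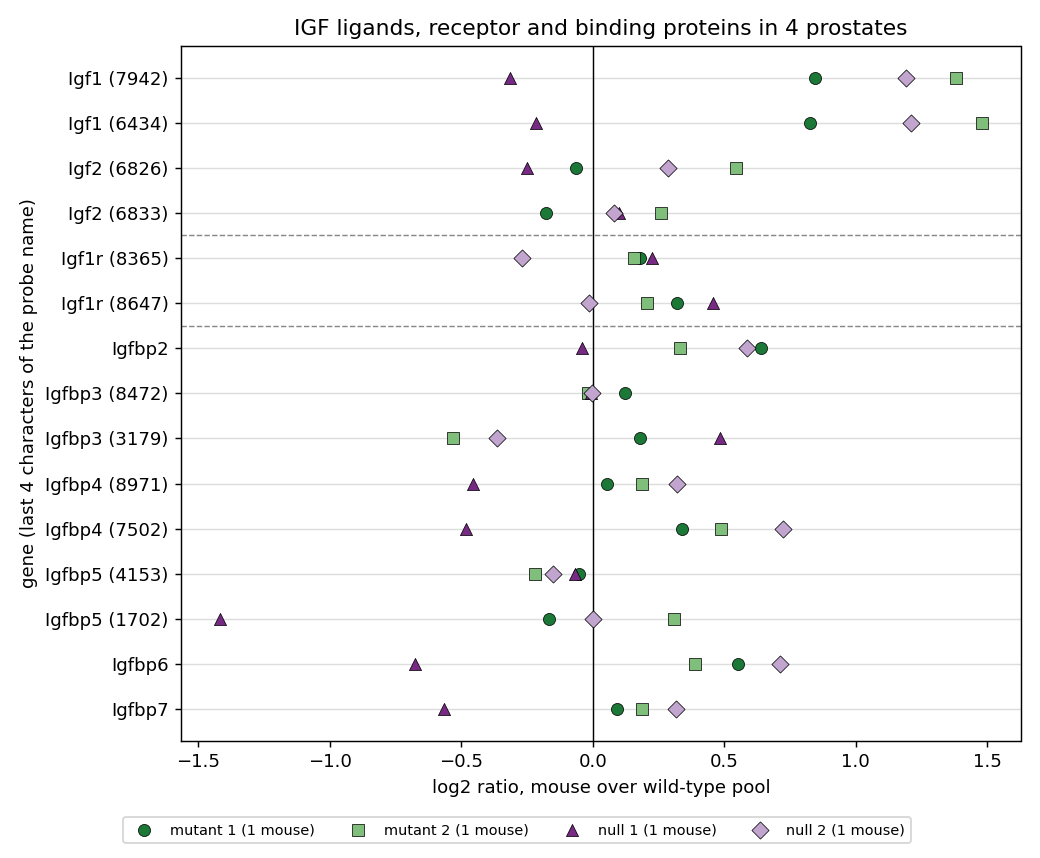
Log2 ratio over the wild-type pool (x axis) of the 15 member probes past the filter (y axis), 1 symbol per mouse. Dashed lines part ligands, receptor and binding proteins. Null mouse 1 is the lowest of the 4 mice for 9 of the 15 probes, and both Igf1 probes stand between 0.83 and 1.48 in the other 3 mice.

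Igf1 encodes the ligand IGF-I. The repeated Igf1 probe read 0.85 and 1.38 in the mutant mice, -0.32 in null mouse 1 and 1.19 in null mouse 2. Thus 3 mice stood at 1.80, 2.60 and 2.28 times the pool, and 1 stood below it. The ratios of null mouse 2 lay between those of the mutant mice, so the genotypes overlapped. The coding-sequence probe read 0.83 and 1.48 in the mutant mice, -0.22 in null mouse 1 and 1.21 in null mouse 2, the same order of mice from a separate stretch of the gene.

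For Igf1 the mean of all 4 mice over the pool was 0.78 (SE 0.266, 95% interval 0.0924 to 1.46, higher in 3 of 4 mice, adjusted p = 0.255 in limma) at the repeated probe. It was 0.83 (SE 0.262, 95% interval 0.153 to 1.5, adjusted p = 0.244 in limma) at the coding-sequence probe. Both unadjusted p values were under 0.05, at 0.033 and 0.0252, and neither passed the correction. Centring the arrays on their medians, in place of the loess fit that removes a trend with brightness, gave 1.24 and 1.27 (adjusted p = 0.0677 and 0.0617 in limma), while the median of all probes became 0.367. In the mutant mice alone the means were 1.11 ± 0.38 (SD, n = 2) and 1.15 ± 0.46 (SD, n = 2), with an adjusted p of 0.453 in limma for both. In the null mice they were 0.44 ± 1.07 and 0.50 ± 1.01 (SD, n = 2), with adjusted p values of 0.676 and 0.629 in limma.

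The genotype difference in Igf1, mutant minus null, was 0.67 (SE 0.532, 95% interval -0.692 to 2.04, adjusted p = 0.985 in limma) at the repeated probe. It was 0.66 (SE 0.524, 95% interval -0.689 to 2, adjusted p = 0.985 in limma) at the other. Without null mouse 1 these differences were -0.08 and -0.06, and without null mouse 2 they were 1.43 and 1.37, so 1 null mouse decided their size and sign. Under median centring they were 1.20 and 1.16, with an adjusted p of 0.547 in limma for both, where the median of all probes was 0.383. The intervals are wide on both sides of 0, so the test does not show that the genotypes have equal Igf1.

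The 10 spots of the repeated Igf1 probe gave the measuring error within an array. Their SD was 0.154 and 0.0408 in the mutant mice, 0.0766 in null mouse 1 and 0.0814 in null mouse 2. The spots of null mouse 1 ran from -0.43 to -0.18, and those of the other 3 mice from 0.46 to 1.46. No spot of null mouse 1 therefore reached the lowest spot of any other mouse, and the spread between mice was several times the spread between spots.

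**Figure D2:**
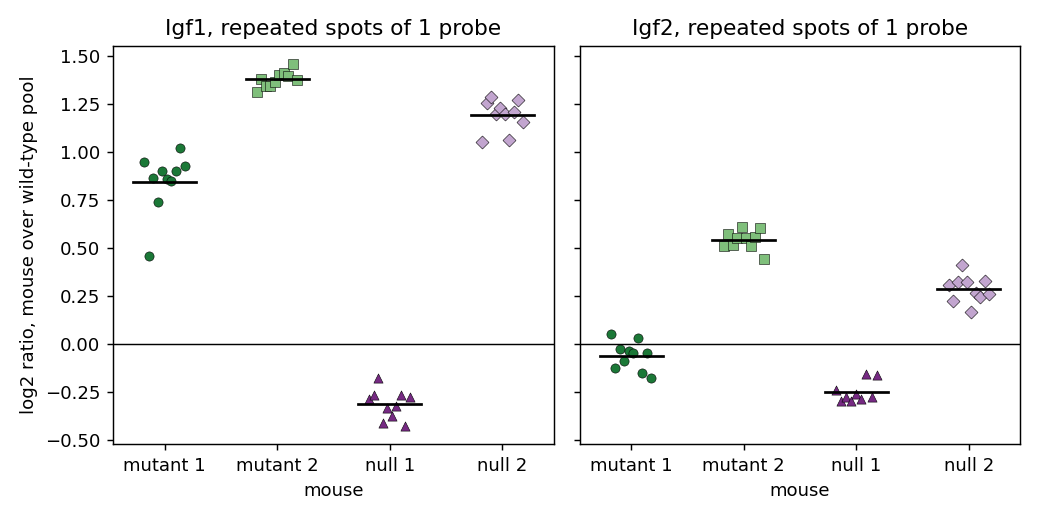
Log2 ratio over the wild-type pool (y axis) of the single spots of the Igf1 and Igf2 probes that are spotted 10 times, by mouse (x axis), with a bar at the mean. Igf2 in null mouse 1 has 9 spots after 1 flagged spot was left out. Igf1 spots of null mouse 1 lie between -0.43 and -0.18, below every spot of the other mice.

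The third Igf1 probe, on chromosome 10 from 87420848 to 87420907, was above background only in mutant mouse 2. Its ratios were 0.27 and 0.46 in the mutant mice and 0.08 in each null mouse, with net red signals of 21.15, 54.68, 11.46 and 7.839. In the authors' deposited table, which lists ratios of group means of at least 1.13, the entry with this probe's accession has the largest ratio under any member's symbol, 3.21 with the mutant mean higher. That ratio rests on a probe measured above background in 1 of 4 mice. The table's 10 Igf1 entries with the accession of the repeated probe have ratios of 1.39 to 1.64, and its entry with that of the coding-sequence probe has 1.49, beside fitted folds of 1.60 and 1.58 here.

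Igf2 encodes IGF-II, a fetal growth factor whose gene is expressed from the paternal allele and lies beside the noncoding gene H19. Its repeated probe, on chromosome 7 from 139078075 to 139078135, read -0.06 and 0.54 in the mutant mice, -0.25 in null mouse 1 and 0.29 in null mouse 2. The spot SDs were 0.0499 to 0.0742, so mutant mouse 2 and null mouse 2 were above the pool, and null mouse 1 below it, by more than the spot error. The genotypes overlapped, with a difference of 0.22 (SE 0.308, 95% interval -0.567 to 1.01, adjusted p = 0.985 in limma). The spot error does not hold the effect of the scaling. Under median centring this probe read 0.45 and 1.12 in the mutant mice, -0.36 in null mouse 1 and 0.66 in null mouse 2.

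The other Igf2 probe, on chromosome 7 from 139078490 to 139078549, read -0.18 and 0.26 in the mutant mice and 0.10 and 0.08 in the null mice. It was above background in 3 of the 4 mice, not in null mouse 1, and its order of mice differed from that of the repeated probe. H19 read 0.06 and 0.19 in the mutant mice and 0.07 and 0.17 in the null mice. The mean of all 4 mice over the pool was 0.13 (SE 0.154, adjusted p = 0.681 in limma) for the repeated Igf2 probe, against 0.78 for Igf1; the difference between the ligands was not tested.

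Igf1r encodes the receptor, the tyrosine kinase that both ligands bind. One probe, on chromosome 7 from 64082649 to 64082708, read 0.18 and 0.16 in the mutant mice, 0.23 in null mouse 1 and -0.27 in null mouse 2. The other, from 64043608 to 64043667, read 0.32 and 0.21 in the mutant mice, 0.46 in null mouse 1 and -0.01 in null mouse 2. At both probes null mouse 1 was the highest and null mouse 2 the lowest. This order did not hold under median centring, where the probes read 0.99 and 0.87 in the mutant mice, then 0.11 and 0.24, and 0.60 and 0.37, then 0.40 and -0.01. The genotype differences were 0.19 (SE 0.232, 95% interval -0.407 to 0.785, adjusted p = 0.985 in limma) and 0.04 (SE 0.23, 95% interval -0.549 to 0.631, adjusted p = 0.994 in limma). Against the pool, the mean of the 4 mice was 0.07 and 0.24, with adjusted p values of 0.762 and 0.341 in limma. The first became 0.55 (adjusted p = 0.0502 in limma) under median centring and -0.01 from the deposited processed signals, which raised the second to 0.59 (adjusted p = 0.348 in limma).

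Among the binding proteins, Igfbp2 had the smallest p value for the 4 mice against the pool, though 1 mouse stood at the pool's level. Igfbp2 encodes a carrier with a preference for IGF-II. It read 0.64 and 0.33 in the mutant mice, -0.04 in null mouse 1 and 0.59 in null mouse 2, so 3 mice stood at 1.26 to 1.56 times the pool and null mouse 1 at its level. The mean was 0.38 (SE 0.14, 95% interval 0.0211 to 0.737, higher in 3 of 4 mice, unadjusted p = 0.0417, adjusted p = 0.267 in limma). Median centring raised that mean to 1.13 with an adjusted p of 0.0455 in limma. The genotype difference was 0.21 (SE 0.279, 95% interval -0.504 to 0.928, adjusted p = 0.985 in limma).

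Igfbp5 lies next to Igfbp2 in the genome, with 6092 bases between their nearest probes and no protein-coding gene between them in the RefSeq table. Its product binds IGFs in the extracellular matrix. The bright Igfbp5 probe read -0.17 and 0.31 in the mutant mice, -1.42 in null mouse 1 and 0.00 in null mouse 2. Null mouse 1 had 2.67 times less signal than the pool, the widest departure below the pool of any member, and the other 3 mice lay on both sides of the pool. The difference, mutant minus null, was 0.78 (SE 0.503, 95% interval -0.512 to 2.07, adjusted p = 0.985 in limma), and 0.07 without null mouse 1. Under median centring the bright probe read 1.05 and 1.31 in the mutant mice and -1.38 and 0.87 in the null mice, so its mean over the pool turned from -0.32 to 0.46 and both mutant mice were above both null mice, with a difference of 1.44 (adjusted p = 0.547 in limma).

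The dim Igfbp5 probe did not share that pattern. It read -0.05 and -0.22 in the mutant mice and -0.07 and -0.15 in the null mice, and was the only member probe below the pool in all 4 mice, against 14.9% of all probes. Under median centring it read 0.12 and 0.00 in the mutant mice and -0.14 and -0.03 in the null mice, so it was not below the pool in every mouse there. Its net red signal was 42.66 to 134.8, where the offset of 50 narrows ratios. From the deposited processed signals it read -0.31 and -0.49 in the mutant mice and -0.04 and -0.48 in the null mice. It was again below the pool in every mouse, and null mouse 1 was not low there either. The 2 probes thus disagreed about null mouse 1 by more than 1 on the log2 scale, and which stretch of the transcript each reads was not settled.

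Igfbp6, Igfbp4 and Igfbp7 had the same order of highest and lowest mouse. Igfbp6, a carrier with a strong preference for IGF-II, read 0.55 and 0.39 in the mutant mice, -0.68 in null mouse 1 and 0.71 in null mouse 2. Igfbp4, which restrains IGF action until a protease cuts it, read 0.34 and 0.49, then -0.48 and 0.72 at its brighter probe, on chromosome 11 from 99161059 to 99161118. Its other probe, from 99157316 to 99157375, read 0.05 and 0.19, then -0.46 and 0.32.

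Igfbp7, a low-affinity relative that is abundant in stroma and vessels, read 0.09 and 0.19 in the mutant mice, -0.57 in null mouse 1 and 0.31 in null mouse 2. In all 3 genes null mouse 2 was the highest and null mouse 1 the lowest, so the null mice lay on either side of both mutant mice. Under median centring null mouse 1 was still the lowest, but null mouse 2, at 1.45 for Igfbp6 and 1.26 for Igfbp7, was below mutant mouse 1, at 1.62 and 1.41. The genotype differences were 0.45 (SE 0.473, 95% interval -0.762 to 1.67) for Igfbp6, 0.29 and 0.19 for the Igfbp4 probes and 0.27 for Igfbp7, each with an adjusted p of 0.985 in limma. Without null mouse 1 they were -0.24, -0.31, -0.20 and -0.17. Under median centring they were 1.09 for Igfbp6, 0.69 and 0.37 for Igfbp4 and 0.91 for Igfbp7, with adjusted p values of 0.547 to 0.672 in limma. For Igfbp4 in null mouse 1 the deposited processed signals, to which no offset of 50 is added, gave -1.07 and -1.47, wider than the -0.48 and -0.46 above.

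Igfbp3 encodes the main carrier of IGFs in serum. Its brighter probe, on chromosome 11 from 7158599 to 7158658, read 0.18 and -0.53 in the mutant mice, 0.48 in null mouse 1 and -0.37 in null mouse 2. Null mouse 1 was the highest here, and each genotype had 1 mouse on each side of the pool. The difference was -0.24 (SE 0.389, 95% interval -1.23 to 0.763, adjusted p = 0.985 in limma), and 0.19 without null mouse 1. Under median centring the brighter probe read 1.08 and 0.20 in the mutant mice and 0.38 and 0.21 in the null mice, so mutant mouse 1 was the highest, all 4 mice were above the pool and the difference turned to 0.35 (adjusted p = 0.666 in limma). The intron-crossing probe printed above read 0.12 and -0.02 in the mutant mice and -0.01 and 0.00 in the null mice, and was above background in 3 of 4 mice.

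Igfbp1, a carrier made chiefly in liver, lies next to Igfbp3, with 4092 bases between their nearest probes. Its probe was not well above background in either channel of any array, with net red signals of 3.286 to 22. No ratio is given for it. The authors' deposited table lists Igfbp1 with a ratio of 1.17, the mutant mean higher, which here has no signal above background behind it.

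The genotype difference, mutant minus null, was above 0 for 12 of the 15 member probes and for 13320 of all 24850, with medians of 0.21 and 0.02. Both mutant mice were above the pool for 9 of the 15 probes, against 37.2% of all probes, and below it for 1, against 29.3%. Both null mice were above it for 1, against 29.2%, and below it for 2, against 27.3%. No probe of a member was above the pool in all 4 mice, against 16.7%. The null mice thus lay on opposite sides of the pool for most members. No member probe had both mutant mice above both null mice, where 16.7% of all probes did, and none had both below, where 13.6% did. Under median centring, 3 of the 15 had both mutant mice above both null mice, where 42.2% of all probes did. The Igf1r probe A_51_P318365, the brighter Igfbp3 probe and Igfbp2 were then above the pool in all 4 mice, Igfbp2 by only 0.0086 in null mouse 1. From the deposited processed signals 0 of the 15 had both mutant mice above both null mice, where 15.9% of all probes did. Whether any member probe falls in these counts therefore depends on the scaling. The plot of both comparisons shows intervals that cover 0 between the genotypes for all 15 probes.

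**Figure D3:**
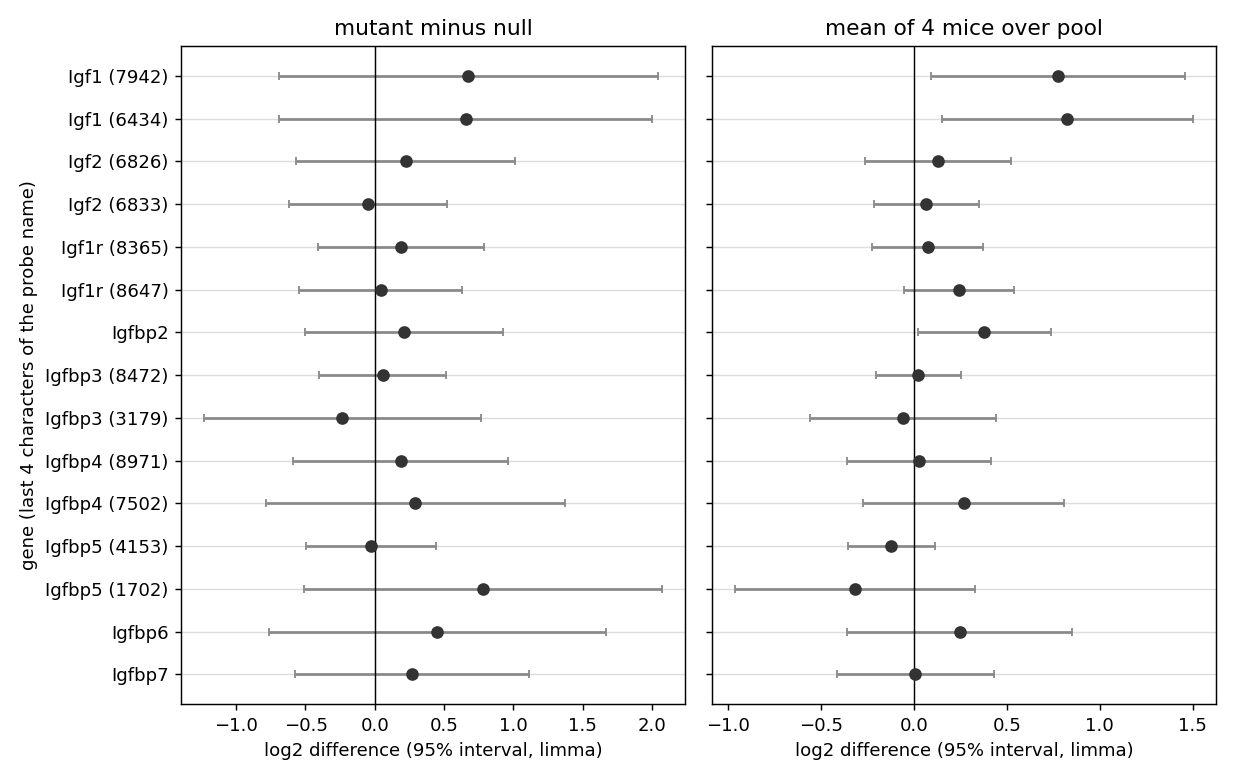
Fitted log2 difference with its 95% interval (x axis) for the 15 member probes (y axis), mutant minus null on the left and the mean of 4 mice over the wild-type pool on the right. All intervals on the left cover 0, and on the right those of both Igf1 probes and of Igfbp2 lie above it, before adjustment over all probes.

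Null mouse 1 was the lowest of the 4 mice for 9 of the 15 probes, against 37.6% of all probes, and the highest for 3, against 31.3%. It was at least 1 below the next mouse for 4 of the 15, both Igf1 probes, the bright Igfbp5 probe and Igfbp6, against 1.61% of all probes. For 7 of the 15 probes null mouse 1 was below the pool and the other 3 mice above it, against 11.4%. From the deposited processed signals null mouse 1 was the lowest for 9 members against 37.4% of all probes, and under median centring for 11 against 66.9%.

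**Figure D4:**
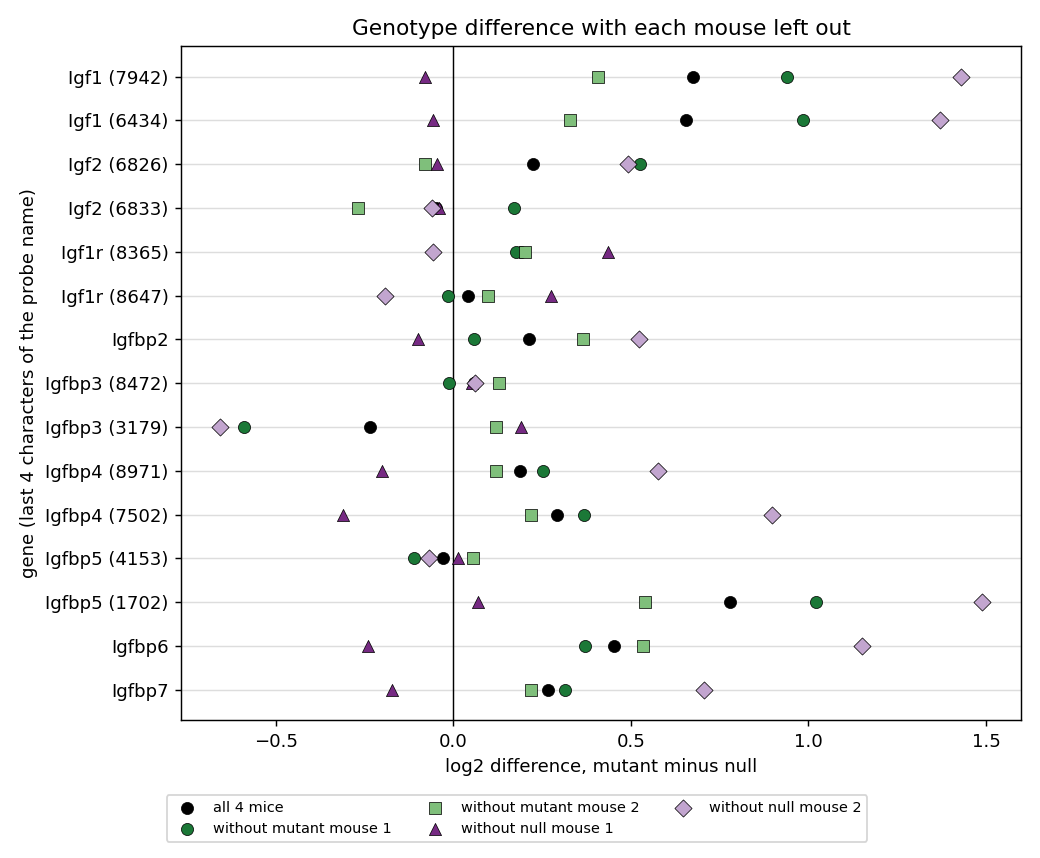
Log2 difference, mutant minus null (x axis), of each member probe (y axis) with all 4 mice and with each mouse left out. Without null mouse 1 both Igf1 probes lie at -0.08 and -0.06, and without null mouse 2 at 1.43 and 1.37. Leaving out null mouse 1 changed the sign for 10 of the 15 probes, a count that was not taken over all probes.

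Leaving out 1 mouse changed the sign of the genotype difference for 10 of the 15 probes when it was null mouse 1, for 2 when it was null mouse 2 and for 3 when it was either mutant mouse. How often the sign changed over all probes was not counted, so these counts are not read as a trait of the members. In the 3 mice other than null mouse 1, 7 of the 15 probes were above the pool in every mouse, against 28.1% of all probes. These were both Igf1 probes, Igfbp2, both Igfbp4 probes, Igfbp6 and Igfbp7. With null mouse 1 left out, limma called 36 probes (29 higher, 7 lower) in the remaining 3 mice against the pool, none of them a member, and the smallest adjusted p of a member was 0.0911.

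Markers of other cells moved with these members over the mice. All 10 fibroblast markers past the filter had null mouse 1 lowest of the 4, as did 38.6% of all genes. The fibroblast medians were 0.25 and 0.54 in the mutant mice, -0.81 in null mouse 1 and 0.83 in null mouse 2. The collagen gene Col1a2 read 0.66, 0.80, -0.84 and 0.84 in that order, and Dcn, the proteoglycan decorin, 0.08, 0.49, -0.92 and 0.95. Adipocyte markers, 7 genes, had medians of 0.49, 1.46, -1.54 and 1.15, with 7, 7, 1 and 7 of them above the pool. Macrophage markers, 9 genes, had medians of 1.01, 0.86, -0.37 and 1.45, with null mouse 1 lowest for all 9, against the same 38.6%. Under median centring null mouse 1 was the lowest for 66.9% of all probes, and the marker counts were not taken there.

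Other lists ran differently. Smooth muscle markers, 10 genes, had medians of -0.26, -0.52, 0.21 and -0.14, with null mouse 1 highest for all 10. Over all genes, null mouse 1 was the highest for 31.4%, the share to set beside each such count here. The 9 endothelial markers had medians of -0.08, 0.08, -0.07 and 0.16. Medians over the 9 prostate secretory genes were 0.25, 0.04, -1.09 and -0.21, and over the 8 heat shock genes 0.20, 0.23, 3.53 and 0.39, with null mouse 1 highest for all 8. Single heat shock genes were also above the pool elsewhere, such as Hsph1 at 1.38 in null mouse 2 and Hspa1a at 1.40 in mutant mouse 1. The 6 luminal epithelial markers had medians of -0.02, -0.30, 1.08 and -0.11, with null mouse 1 highest for 5 of 6, and the 5 basal markers -0.31, -0.41, 1.13 and -0.05, with null mouse 1 highest for 4 of 5. Epithelial keratin and junction genes thus stood opposite to the secretory genes in that mouse. In whole tissue, fewer cells of a type and less RNA per cell cannot be told apart, and the part of these cells and of the heat shock RNA in the members' values was not tested.

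**Figure D5:**
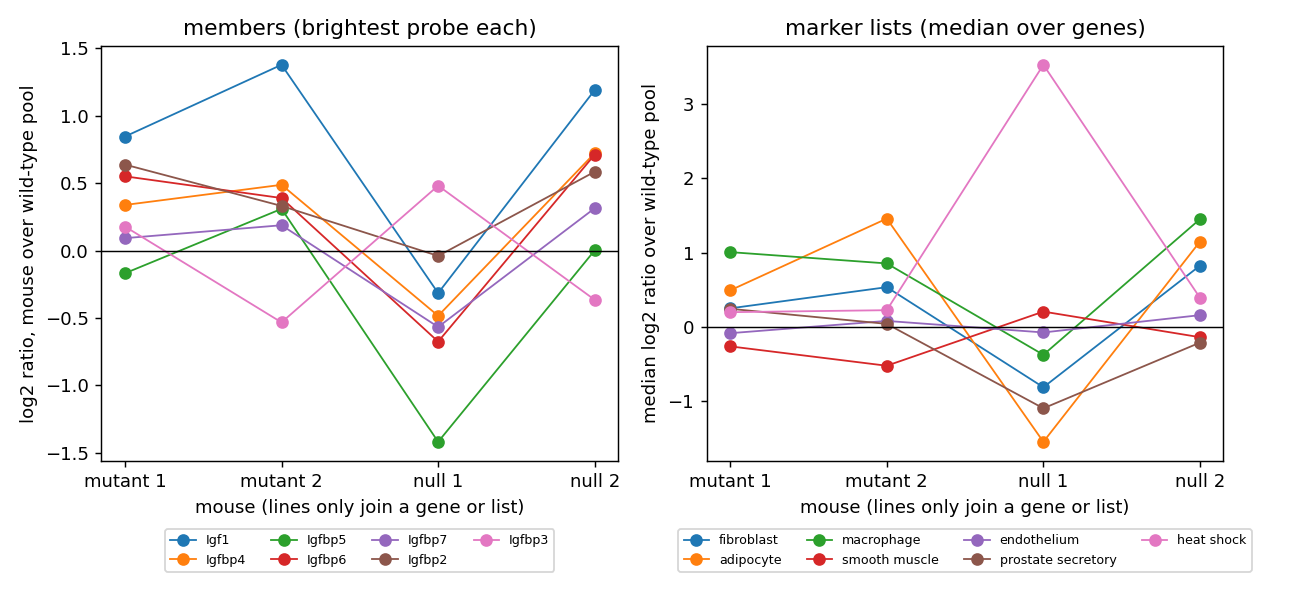
Log2 ratio over the wild-type pool by mouse (x axis), for 7 members by their brightest probe (left) and for the median of 7 marker lists (right). Lines join values of 1 gene or list and imply no order of mice. Igf1, Igfbp2, Igfbp4, Igfbp5, Igfbp6 and Igfbp7 are lowest in null mouse 1, as are the fibroblast, adipocyte, macrophage and prostate secretory medians. Igfbp3 and the smooth muscle and heat shock medians are highest there. Among those not plotted, Igf2 (brightest probe) and the seminal vesicle and neuroendocrine medians are lowest in that mouse. Igf1r and the luminal, basal and skeletal muscle medians, also not plotted, are highest in it.

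The bright Igfbp5 probe had the widest range over the 4 mice, and the genes nearest to it by Euclidean distance over the 4 log2 ratios were Plekhb1, Gpr155 and Cat. Their distances were 0.282, 0.291 and 0.293. Plekhb1 read -0.04 and 0.13 in the mutant mice, -1.40 in null mouse 1 and 0.17 in null mouse 2. The likeness rests on 4 arrays and mainly on null mouse 1, with a value of -1.33 in Gpr155 and -1.31 in Cat.

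The wider IGF and insulin pathway was read from a list of 46 genes, of which 44 were on the array and 34 past the filter. None passed the test in any of the 4 comparisons. Their medians were 0.16 and 0.12 in the mutant mice, 0.07 in null mouse 1 and 0.09 in null mouse 2, and 10 of the 34 were above the pool in every mouse (29.4%, against 17.2% of all genes). Ctgf, a matrix-cell signalling protein that shares a domain with the binding proteins, read 0.94 and 0.27 in the mutant mice and 3.03 and 1.25 in the null mice, a mean of 1.38. It was the only gene of the list on one side of the pool in every mouse with a mean of at least 1 in size.

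Of the brightest genes of that list, Irs1, an adaptor that carries the receptor's signal, read 0.60 and 0.44 in the mutant mice and 0.34 and 0.64 in the null mice. Igf2r, which clears IGF-II from the cell surface, read 0.20 and -0.03, then 0.50 and 0.09. Irs1 was thus above the pool in all 4 mice, with an SD over them of 0.14, and Igf2r was within 0.50 of it. By group, 4 of 6 adaptor genes, 3 of 9 kinases and their brakes and 0 of 4 binding protein proteases and their inhibitors were above the pool in every mouse, against 17.2% of all genes. Below it in every mouse were 0, 1 and 1 of them, against 14.2%, in groups of 4 to 9 genes.

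The RefSeq promoters of GRCm38.p6, which run from 250 bases before to 50 after the start, were searched on both strands for the E2F motifs TTTCGCGC, TTTGGCGC, TTTCCCGC and TTTGCCGC. None of the 14 promoters of the members held one, against 744 of 32851 promoters (2.26%). This says only that these letters are not in those windows.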

How the data were processed

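The deposited scanner files give each spot's brightness as intensity, per the file headers, with a log10 ratio of the processed signals that was not used beyond a check. Feature Extraction 9.5.1.1 read the images per the file headers, whereas the submitters' processing notes give 8.5. The authors' deposited table gives a linear ratio of group means per entry, with no value per array. Background correction of the mean signals used normexp with an offset of 50, which narrows the ratios of dim probes, followed by loess within each array (limma 3.58.1, R 4.3.3). Control spots were given weight 0, 644 outlier-flagged spots were left out, and no spot was saturated. Probes were tested if they had a value on every array and were well above background in red on both arrays of either genotype, or in green on all 4. Log2 ratios were fitted with lmFit and eBayes. The 4 arrays share 1 slide and 1 scan. With 2 arrays a side, the lowest p that an exact permutation allows is 0.333. Spots were averaged per probe, and levels were never compared between probes. Red channels had 22180 to 26160 probes above background; 4 arrays limit the precision.

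Genes were named from the files, and list genes through the RefSeq table of GRCm38.p6 (22951 probes by accession, 9768 by symbol, 8455 with the file's name kept). All members are named. List genes are named where on one side of 0 in every mouse with a mean of at least 1 in size, or called, and otherwise the 2 brightest; marker genes named are examples, chosen after their values were seen, as was H19. The members and lists were chosen with earlier results of these data known. The fit was tested on simulated data. The alternatives tried were the deposited processed signals, no background correction, median centring, arrays scaled to 1 spread, no filter, a stricter filter, the brightest probe per gene, each mouse left out and a replicate block. The labels number the mice of each genotype 1 and 2, but deviations of same-numbered mice correlated at 0.0036, so the numbers do not pair them.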

Additional observations from a re-analysis of the deposited data

Results flagged for a closer look

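Over the 4 mice, 2 member probes had 1 mouse far from the other 3. At the Igf1r probe A_51_P318365 the gap between null mouse 2, at -0.27, and the next mouse was 0.857 of the whole range, the other 3 mice lying between 0.16 and 0.23. At the dim Igfbp3 probe A_51_P228472 the gap between mutant mouse 1, at 0.12, and the next was 0.882 of the range, on a probe not above background in null mouse 1. Both flags come from the loess-scaled values. Under median centring null mouse 2 was not the lowest at the Igf1r probe, at 0.24 beside 0.11 in null mouse 1. The Igfbp3 probe then read 0.02 and -0.30 in the mutant mice and -0.01 and -0.09 in the null mice, with mutant mouse 1 close to the next. The 4 mice span both genotypes, and chance marks about 1 in 20 such groups.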

How the results depend on the processing

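With 2 mice per genotype, the data limit the genotype differences to wide intervals. Of 688 member values under 12 alternatives, 638 shifted by less than the SD between mice and 49 by more, none of these with a call. The remaining 1, Igfbp2 against the pool under median centring, passed the threshold. Sign changed for 87, none of them a called value. The 638 do not measure stability, since leaving out 1 of 2 mice of a genotype cannot shift a value beyond that SD. Changing the filter, taking the brightest probe per gene and the replicate block leave the log2 values as they were. Probes called in all 4 mice against the pool numbered 6 from the processed signals, 4250 under median centring (4183 higher, 67 lower), 0 with scaled arrays, 0 without the filter and 5 with the stricter filter, against 3. Median centring moved the median of all probes to 0.367 there, to 0.596 in the mutant mice, to 0.137 in the null mice and to 0.383 between the genotypes. Calls in the mutant mice against the pool numbered 2 with the stricter filter and 2 with the brightest probe per gene, and those in the null mice 2 with the stricter filter, against 0. Leaving out 1 mouse gave 0 to 323 calls in all mice against the pool (323 without null mouse 2), 0 to 2 in the mutant mice, 0 to 376 in the null mice (376 without null mouse 2) and 0 to 9 between the genotypes (9 without null mouse 2), where a lone mouse of a genotype is assumed to vary like the other genotype. No member was among them. With the replicate block, calls against the pool in all 4 mice went from 3 to 0, and the smallest adjusted p of a member between the genotypes was 0.991 in limma. Same-numbered mice are not paired, and no other count changed with the block.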

Other observations

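Under the symbol Igf1r the authors' deposited table lists no entry with the accession of either Igf1r probe. It lists 2 other transcripts under that symbol. The array files name their probes A330103N21Rik and D930020L01. The first has a ratio of 1.92 in the authors' deposited table, the mutant mean higher, and read 1.66 and 0.45 in the mutant mice and 0.41 and 0.18 in the null mice here. The second has 1.15, the mutant mean lower, and read 0.34 and 0.08, then 0.28 and 0.01. The value of 1.66 in mutant mouse 1 has no counterpart at the Igf1r probes, which read 0.18 and 0.32 in that mouse. Whether these transcripts belong to Igf1r was not settled.

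Of the 31 entries under member symbols in the authors' deposited table, 28 have the mutant mean higher and 3 have it lower. Igf1 and Igf2 each have 10 entries under 1 accession, so a count of entries weights those genes most.

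Stc2, whose product inhibits the protease that cuts Igfbp4, read -1.16 and -0.82 in the mutant mice and -0.62 and -0.57 in the null mice. It was below the pool in all 4, as were 14.2% of all genes, with both mutant mice below both null mice, as for 14.6% of all genes. Htra3, a protease with a domain like that of the binding proteins, read 1.03 and 0.51, then -1.42 and 1.44, with null mouse 1 lowest as for Igfbp6. Both genes were chosen after their values were seen, and neither passed the test.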
